A study of Mus musculus with 12 samples.

Results

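Livers that had lost both Apc and Myc (the ApcMyc group) were compared with livers that had lost Apc alone (the Apc group). The arrays were chosen by their genotype labels and no measured value entered the choice. They were 6 of the 12 arrays of the study, 3 in each group. The ApcMyc mice were homozygous for floxed Apc and floxed Cmyc, and the Apc mice were homozygous for floxed Apc. The other arrays, 3 from mice homozygous for floxed Cmyc (Myc) and 3 from wild-type mice (WT), were used beside them. Every mouse, WT included, carried AhCre, and every one received beta-naphthoflavone, 3 injections of 80 mg/kg in 1 day, with the liver taken on day 4. AhCre is a Cre recombinase gene under the promoter of a cytochrome P450 gene that the aryl hydrocarbon receptor switches on, so the inducer acts on that receptor in all groups. Whole liver tissue was profiled, in which fewer cells of a type and less RNA per cell cannot be told apart. Nothing in the labels states that each array is a different animal, and the p-values cover array-to-array spread, which may be technical.

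Apc is a scaffold of the complex that marks beta-catenin for destruction. Without it beta-catenin builds up and, with TCF/LEF factors, switches on Wnt target genes such as Axin2 and Lgr5. In the liver this pathway is active around the central vein, where it maintains a pericentral programme that includes glutamine synthetase (Glul), and it holds back the urea cycle and amino acid enzymes of periportal hepatocytes. Myc is a transcription factor that, with Max, binds the E-box CACGTG and drives ribosome production and cell growth, and it is a known Wnt target. The comparison asks how the state of an Apc-deleted liver differs when Myc is deleted with it.

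The titles of the ApcMyc and Myc arrays follow one naming style and those of the Apc and WT arrays another, so anything the style marks, such as a batch, cannot be told apart from the Myc genotype. The control spot for the spike-in DapX 3′ end averaged 4.36 on the ApcMyc and Myc arrays and 8.56 on the Apc and WT arrays in log2(signal + 16) (exact two-sided permutation test, 6 against 6, p = 0.00216, the smallest it can give). The 18S rRNA control moved with it, at 6.11 on the ApcMyc and Myc arrays and 8.58 on the Apc and WT arrays (the same test and p). Of the 61 control probe sets, 36 were lower and 5 higher on every ApcMyc array than on any Apc array. Before normalization the median signal per array was 86.5 to 106.9 in ApcMyc and 42.4 to 53.7 in Apc. The ratio of the Gapdh 3′ to 5′ controls was 1.07 to 1.18 in ApcMyc and 0.72 to 0.89 in Apc, while that of the actin controls overlapped, at 1.62 to 1.72 in ApcMyc and 1.57 to 2.16 in Apc. The part of these differences in the results was not tested. For that reason the difference between Myc and WT, which carries the same change of Myc genotype and of title style on arrays of its own, is given beside the lists and most genes described, and the difference of the 2 differences, in which an additive effect of the style cancels, was tested. Hepatocyte markers were high: of the 10 hepatocyte markers listed, the 3 with a name (Apoa1, Serpina1a and Fabp1) stood at or above the 97.2 percentile of signal on every array.

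Levels below are log2(normalized signal + 16), and differences are on that scale, which understates the change of dim genes. The lowest signal reads 4.09 on it. Detection calls were not given, so a level above 4.09 does not by itself show that a gene was detected. A gene was called, and is said to have risen or fallen, where limma's adjusted p was under 0.05. In ApcMyc against Apc, 6702 of 32115 probe sets were called (20.9%), 3375 higher (10.5%) and 3327 lower (10.4%). The difference was 1 or more on the log2 scale for 1161 rises and 1224 falls. In Myc against WT, 2925 were called (9.11%), 1302 higher (4.05%) and 1623 lower (5.05%), a split that became 2251 and 1523 when arrays were scaled to a common median. Of the rises in ApcMyc against Apc, 674 (20.0%) were also rises in Myc against WT, where they made up 51.8% of the rises. Of the falls, 716 (21.5%) were also falls there, 44.1% of the falls in Myc against WT. The difference of the 2 differences was called for 744 probe sets (2.32%), 386 higher (1.2%) and 358 lower (1.11%), or 402 and 805 with median scaling. Names were available for 2176 genes, taken from lists that the authors had selected on these same arrays. Among them 974 were called (44.8%), 521 higher (23.9%) and 453 lower (20.8%). These shares are the background for every count of named genes, and such a count is no independent support for a direction. The authors' lists compared ApcMyc with Apc, Apc with WT and ApcMyc with WT, and none compared Myc with WT. Named genes were thus chosen for differences that involve Apc or ApcMyc arrays. Counts and medians of a list in Myc against WT are therefore not on equal terms with those in ApcMyc against Apc.

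Myc itself was measured first. Its level was 5.37, 5.49 and 5.51 on the ApcMyc arrays, against 8.73, 9.09 and 8.58 on the Apc arrays. The ApcMyc arrays were tight and lay far below every Apc array. The difference was -3.35 (SE 0.29, 95% interval -3.97 to -2.73, limma adjusted p = 5.08e-05), or 10.2-fold lower. Myc read 4.89, 5.47 and 5.30 on the Myc arrays and 6.56, 5.30 and 6.35 on the WT arrays, which overlapped, with a difference of -0.85 (adjusted p = 0.083). Apc livers were 2.73 above WT livers in Myc (adjusted p = 5.85e-05). Nothing in the files says which part of the transcript this probe set covers relative to the deleted exons.

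**Figure D1:**
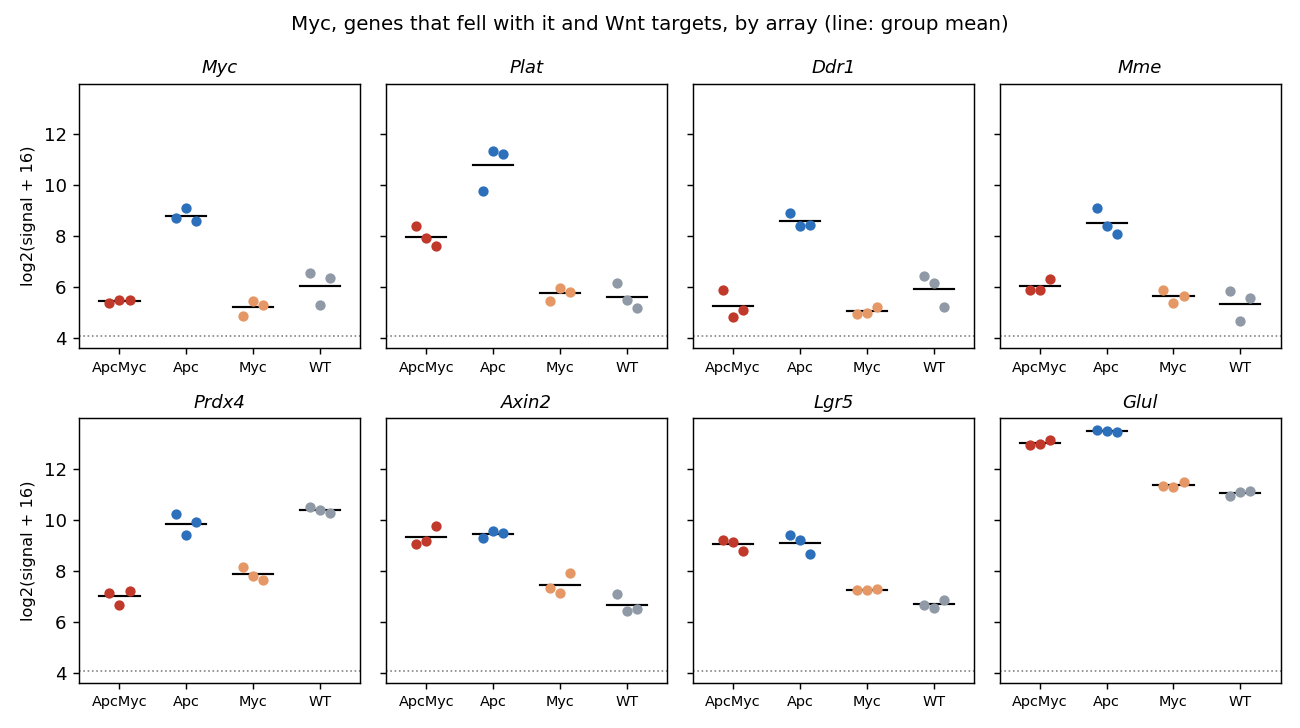
Level of 8 genes on each array, log2(signal + 16) on the y axis, with 1 point per array. The line is the group mean and the dotted line the level of the lowest signal. Myc, Plat, Ddr1 and Mme were lower on all ApcMyc arrays than on all Apc arrays. Prdx4 was lower in ApcMyc and Myc, which share a title style, and Axin2 and Lgr5 overlapped between ApcMyc and Apc.

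The genes of mitosis and cytokinesis had the most falls of the lists. Of 24 measured members of that list, 12 fell and 1 rose, with a median difference of -1.23, against 0.01 over all probe sets. In Myc against WT none of the 24 fell, 1 rose and the median was -0.05. Cdc20, which activates the anaphase-promoting complex, read 8.75, 6.19 and 8.77 in ApcMyc and 9.77, 10.95 and 11.25 in Apc. All ApcMyc arrays were lower, and replicate 2 was far below the others. The difference was -2.75 (SE 0.60, adjusted p = 0.00706). Ube2c, the ubiquitin-conjugating enzyme of the same complex, read 8.01, 5.61 and 7.77 in ApcMyc and 9.25, 9.79 and 10.21 in Apc. Replicate 2 was again the lowest ApcMyc array, and the difference was -2.62 (adjusted p = 0.00535). Aurka, the centrosome kinase Aurora A, read 6.98, 5.54 and 6.65 in ApcMyc and 8.06, 8.42 and 8.56 in Apc. It fell by 1.95 (adjusted p = 0.00189) and the groups were separate.

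The other falling members cover the stages of division. Hmmr, a spindle protein, fell by 2.41, Cdca3 by 2.27, Birc5 (survivin, of the chromosomal passenger complex) by 2.25, and the mitotic cyclins Ccnb2 and Ccnb1 by 2.18 and 2.17. Plk1, a mitotic kinase, fell by 2.01, Ect2, which places the cleavage furrow, by 1.99, the condensin subunit Ncapg by 1.90 and the spindle protein Dlgap5 by 1.19. In all 12, ApcMyc replicate 2 was the lowest ApcMyc array and Apc replicate 1 the lowest Apc array. In all 12 the groups did not overlap, which the call itself makes likely. Of all 24 measured members, called or not, 14 did not overlap, beside 36.4% of all probe sets (33.3% in Myc against WT). The 24 are named genes, which were called more often than all probe sets (44.8% against 20.9%). The share of named genes without overlap was not computed, so the 14 cannot be set against a like background. The count of falls was 9 without Apc replicate 2 or without Apc replicate 3, 10 without ApcMyc replicate 2, 15 without Apc replicate 1 and 16 without ApcMyc replicate 1. On the scores as deposited it was 7. Plk1 and Birc5 lost their calls without Apc replicate 2, Apc replicate 3 or ApcMyc replicate 2, and Ccnb1 without any of the 3 Apc arrays. Without ApcMyc replicate 2 the differences were smallest, at -1.20 for Plk1, -1.47 for Birc5, -1.11 for Ccnb1 and -1.40 for Ccnb2.

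Some division genes did not pass. Cdk1, the kinase that the mitotic cyclins activate, read 8.89, 6.80 and 8.14 in ApcMyc and 8.68, 9.45 and 9.31 in Apc, with overlapping groups and a difference of -1.20 (95% interval -2.19 to -0.22, adjusted p = 0.0795). Ccna2 differed by -0.87 (adjusted p = 0.161) and Bub1 by -1.09 (adjusted p = 0.092). Tpx2, which activates Aurora A, rose by 1.16 on its single probe set, as it did in Myc against WT (1.02). All 12 falling genes averaged higher in ApcMyc than in Myc livers, for example Ube2c at 5.58, 5.42 and 5.82 in Myc and 6.65, 5.21 and 5.52 in WT. The test of the difference between ApcMyc and Apc against that between Myc and WT passed for 1 of the 24, Dlgap5, at -1.36 (adjusted p = 0.028). For Cdc20 it gave -1.81 (adjusted p = 0.27) and for Ube2c -2.43 (adjusted p = 0.11).

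The G1 and S phase list did not move as a group. Of 16 measured members 1 rose and 1 fell, with a median of -0.27, and in Myc against WT also 1 rose and 1 fell, with a median of 0.26. The replication licensing genes Mcm6 and Mcm3 differed by -0.44 (adjusted p = 0.585) and 0.43 (adjusted p = 0.205). Cyclin D1 (Ccnd1), which carries cells through G1, read 11.39, 10.44 and 11.43 in ApcMyc and 11.07, 12.24 and 12.39 in Apc, overlapping, with a difference of -0.81 (95% interval -1.67 to 0.05, adjusted p = 0.167). Without Apc replicate 1 the difference was -1.22 and was called. The cell cycle inhibitor Cdkn1a (p21) differed by -1.03 (adjusted p = 0.0944) on its brightest probe set and fell by 1.18 on a dimmer one (adjusted p = 0.00406). The member that fell, Cdk6, was dim, near 5 on all 6 arrays, and lost its call without any of 5 of them. The member that rose was the flap endonuclease Fen1, at 10.14, 11.17 and 11.42 in ApcMyc and 8.13, 8.59 and 8.68 in Apc, a difference of 2.44 (adjusted p = 0.000337) on a probe set marked as open to cross-hybridization. Fen1 also rose in Myc against WT, by 1.55.

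**Figure D2:**
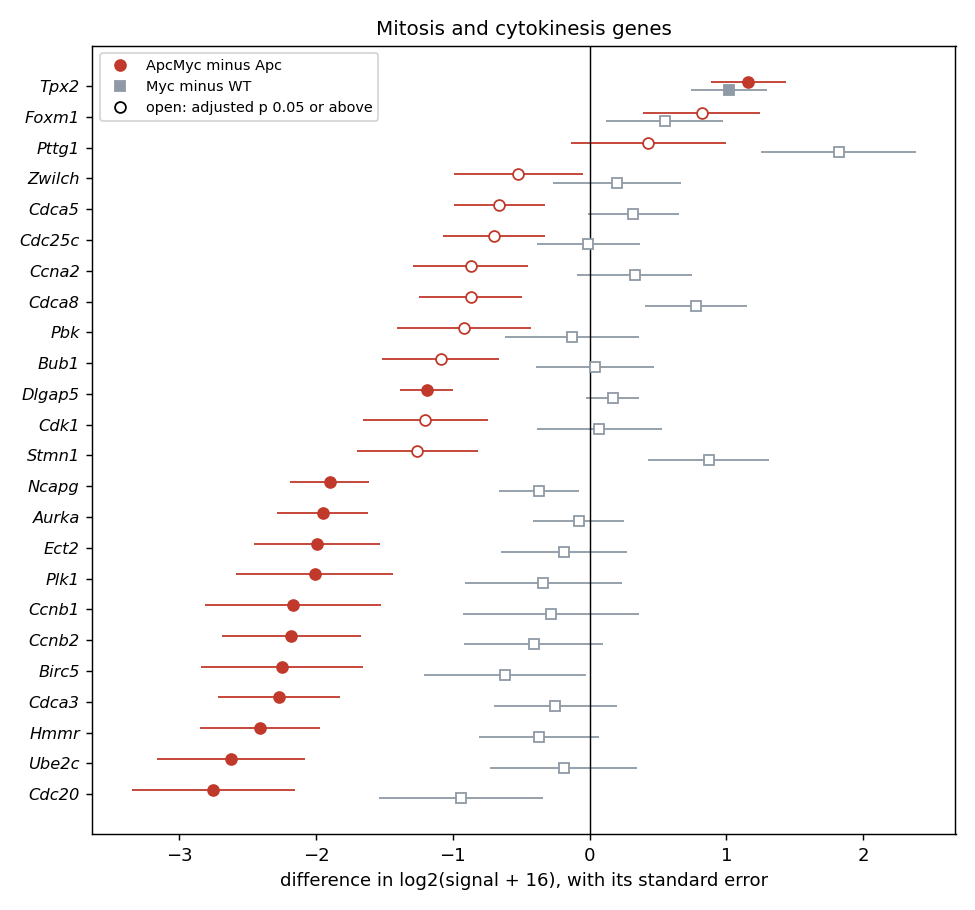
Difference of each of the 24 measured mitosis and cytokinesis genes in log2(signal + 16), with its standard error, for ApcMyc minus Apc (circles) and for Myc minus WT (squares). Filled symbols were called, and the 12 falls lie between -2.75 and -1.19 in ApcMyc minus Apc while the squares of the same genes lie nearer to 0.

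Promoters of genes of mitosis often hold a CCAAT box, bound by NF-Y, and a CHR element, bound by the MuvB complexes that time them to G2 and M phase. The windows of 4 falling mitotic genes that hold both are shown to let the motifs be seen. Each runs 5′ to 3′ on the gene's strand over the 250 bases before the start in the RefSeq table of GRCm38.p6. Capitals mark CCAAT or its reverse complement ATTGG, and TTTGAA or its reverse complement TTCAAA. In Ube2c a CCAAT and an ATTGG overlap.
Ube2c, chr2:164769679-164769928, plus strand: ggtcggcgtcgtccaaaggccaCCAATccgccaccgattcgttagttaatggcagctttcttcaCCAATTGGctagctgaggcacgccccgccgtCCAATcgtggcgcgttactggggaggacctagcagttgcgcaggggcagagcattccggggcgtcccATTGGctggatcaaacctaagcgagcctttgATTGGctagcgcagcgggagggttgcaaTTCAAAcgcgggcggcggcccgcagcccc
Cdc20, chr4:118437344-118437593, minus strand: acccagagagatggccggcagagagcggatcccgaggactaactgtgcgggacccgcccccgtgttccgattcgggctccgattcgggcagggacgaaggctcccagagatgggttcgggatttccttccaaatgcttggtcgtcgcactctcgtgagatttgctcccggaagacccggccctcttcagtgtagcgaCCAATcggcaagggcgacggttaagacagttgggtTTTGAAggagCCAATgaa
Ccnb2, chr9:70421555-70421804, minus strand: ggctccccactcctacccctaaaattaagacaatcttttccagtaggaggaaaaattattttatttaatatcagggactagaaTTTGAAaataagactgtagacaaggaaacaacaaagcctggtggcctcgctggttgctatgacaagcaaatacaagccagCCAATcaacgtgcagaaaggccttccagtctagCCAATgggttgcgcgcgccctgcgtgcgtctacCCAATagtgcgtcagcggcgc
Ect2, chr3:27153855-27154104, minus strand: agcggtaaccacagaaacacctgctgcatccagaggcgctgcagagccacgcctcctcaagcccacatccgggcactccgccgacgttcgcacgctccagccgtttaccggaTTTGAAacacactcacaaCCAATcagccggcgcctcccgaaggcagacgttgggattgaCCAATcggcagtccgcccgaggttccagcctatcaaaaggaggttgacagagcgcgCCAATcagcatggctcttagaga

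A window was found for 11 of the 12 falling mitosis genes. A CCAAT box stood in 10 of them (90.9%), against 34.2% of all 27025 windows of that length, and a CHR in 5 (45.5%), against 16.3%. Of all 24 measured mitosis genes, fallen or not, 16 had a window, with a CCAAT box in 13 (81.2%) and a CHR in 7 (43.8%). The E-box CACGTG, the site of Myc, stood in 0 of the 11. Among the named genes called lower, 27 of 333 windows held it (8.11%), among those called higher 43 of 388 (11.1%), and among all windows 5.93%. These are matches of letters and not measured binding. In the genes with the largest changes, it was found in the windows of Prdx4, which fell, and Fen1, which rose, shown here with CACGTG (and CCAAT or ATTGG) in capitals.
Prdx4, chrX:155338461-155338710, minus strand: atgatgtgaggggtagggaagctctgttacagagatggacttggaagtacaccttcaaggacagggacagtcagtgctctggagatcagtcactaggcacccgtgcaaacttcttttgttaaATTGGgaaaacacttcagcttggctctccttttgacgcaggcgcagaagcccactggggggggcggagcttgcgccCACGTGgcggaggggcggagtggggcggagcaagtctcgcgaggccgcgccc
Fen1, chr19:10203922-10204171, minus strand: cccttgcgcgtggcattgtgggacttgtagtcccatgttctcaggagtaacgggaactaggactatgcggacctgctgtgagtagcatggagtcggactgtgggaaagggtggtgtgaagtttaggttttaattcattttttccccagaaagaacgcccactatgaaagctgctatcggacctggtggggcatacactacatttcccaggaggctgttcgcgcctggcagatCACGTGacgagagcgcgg

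The largest fall of a named gene was in Ly6d, a surface protein of the Ly6 family, at 6.16, 5.77 and 9.89 in ApcMyc and 9.92, 11.66 and 12.10 in Apc. ApcMyc replicate 3 stood next to the lowest Apc array and the other ApcMyc arrays at the WT level. The difference was -3.96 (SE 0.85, adjusted p = 0.00664) and -5.27 to -3.21 with 1 array left out. Plat, tissue plasminogen activator, read 8.39, 7.93 and 7.63 in ApcMyc and 9.76, 11.35 and 11.22 in Apc, a difference of -2.79 (6.91-fold lower, adjusted p = 0.000598). The groups were separate, and Plat was not called between Myc and WT (0.15, adjusted p = 0.85). Mme, the membrane peptidase neprilysin, read 5.89, 5.91 and 6.31 in ApcMyc and 9.10, 8.42 and 8.07 in Apc, a difference of -2.50 (adjusted p = 0.000362), with 0.28 in Myc against WT (adjusted p = 0.63). Ddr1, a collagen receptor kinase, fell by 3.32 (adjusted p = 9.18e-05), with -0.88 in Myc against WT (adjusted p = 0.104), and Ly6d differed by -0.03 there. The difference of the 2 differences was called for Plat, Mme and Ddr1, and not for Ly6d (-3.93). Against WT, Apc livers were higher by 5.23 in Ly6d, 5.17 in Plat, 3.17 in Mme and 2.65 in Ddr1.

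Other large falls were also seen in Myc against WT, where the Myc genotype and the title style change together in the same way. The 2 cannot be told apart for these genes. Prdx4, a peroxiredoxin of the endoplasmic reticulum, read 7.13, 6.65 and 7.23 in ApcMyc and 10.25, 9.40 and 9.91 in Apc, and 8.16, 7.79 and 7.66 in Myc and 10.51, 10.38 and 10.29 in WT. Both pairs were separate. The differences were -2.85 (7.2-fold lower, adjusted p = 4.61e-05) and -2.53 (adjusted p = 0.00022), and the test of one against the other did not pass (-0.32, adjusted p = 0.65). Rb1cc1, of the autophagy initiation complex, fell by 2.53 and by 1.49 in Myc against WT. Tlcd4 fell by 3.00 and also fell in Myc against WT, and here the 2 differences differed (-1.30, adjusted p = 0.027).

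On their brightest probe sets, the Wnt targets Axin2 and Lgr5 overlapped between the groups. Axin2, a negative regulator in the pathway, read 9.05, 9.16 and 9.75 in ApcMyc and 9.31, 9.55 and 9.50 in Apc. The difference was -0.13 (95% interval -0.68 to 0.42, adjusted p = 0.758). Lgr5, a receptor that strengthens Wnt signals, read 9.21, 9.12 and 8.80 in ApcMyc and 9.40, 9.21 and 8.68 in Apc, a difference of -0.05 (95% interval -0.48 to 0.37, adjusted p = 0.88). Both genes stood well above their range in Myc (7.15 to 7.93 and 7.24 to 7.31) and in WT (6.42 to 7.09 and 6.54 to 6.87). The intervals leave room for a change in either gene, and a dimmer probe set of Axin2 was called lower, at 5.83 in ApcMyc and 6.58 in Apc on average (-0.75, adjusted p = 0.0045). Of 11 measured members of the Wnt list 1 rose and 1 fell, with a median of -0.13, beside 0.12 in Myc against WT, where Axin2 and Lgr5 differed by 0.79 (adjusted p = 0.0706) and 0.57 (adjusted p = 0.0885).

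The member that fell was Tbx3, a T-box factor, at 9.27, 9.35 and 9.10 in ApcMyc and 9.91, 9.72 and 9.77 in Apc, a difference of -0.56 (adjusted p = 0.0167, and -0.49 without a call when ApcMyc replicate 3 was left out). Sp5 also lay lower on all ApcMyc arrays, at 8.29, 8.08 and 8.43 against 8.96, 8.88 and 8.90 in Apc, but did not pass (-0.65, adjusted p = 0.0739). The member that rose was Tcf7l2, a partner of beta-catenin on DNA, at 8.40, 8.43 and 8.16 in ApcMyc and 6.58, 6.33 and 6.79 in Apc. Its difference was 1.77 (adjusted p = 0.000265), against -0.29 in Myc against WT, and the 2 differed (2.06, adjusted p = 0.0092).

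Of 16 measured pericentral genes, 3 fell and 1 rose, with a median of -0.04. In Myc against WT 5 rose and 1 fell, with a median of 0.46, and 4 of the 16 had a called difference of the 2 differences, all negative. Glutamine synthetase read 12.93, 12.98 and 13.15 in ApcMyc and 13.51, 13.47 and 13.44 in Apc. The groups were separate by a small step of -0.45 (95% interval -0.76 to -0.14, adjusted p = 0.0399), and the call was lost in 5 of the 6 fits that left 1 array out, at -0.47 to -0.40. Glul differed by 0.32 in Myc against WT (adjusted p = 0.178). Slc1a4, a neutral amino acid transporter, had the largest fall of the list, at 7.54, 7.25 and 7.77 in ApcMyc and 9.58, 9.35 and 9.96 in Apc (-2.11, adjusted p = 5.84e-05), against -0.51 in Myc against WT. Its dimmer probe sets fell by 0.91 and 0.92. The glutamate transporter Slc1a2 fell by 0.63 but rose by 0.79 in Myc against WT (adjusted p = 0.03), and the 2 differed (-1.42, adjusted p = 0.0272). Among its dimmer probe sets, those called fell by 2.38 and 1.25, and those not called differed by -0.28 and -0.98. The amino acid transporter Slc16a10 rose by 0.65 and also rose in Myc against WT (adjusted p = 0.00825). A dimmer probe set of Slc16a10 was not called (-0.33). On their brightest probe sets, the calls of Slc1a2 and Slc16a10 in ApcMyc against Apc were lost without any of 5 arrays. Only 1 of the 3 falls was called without Apc replicate 1, Apc replicate 2, ApcMyc replicate 1 or ApcMyc replicate 2.

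Periportal and amino acid enzymes were the main group of hepatocyte genes to rise. Of 23 measured periportal genes 9 rose and 2 fell, with a median of 0.58, and of 12 genes of the urea cycle and amino acid breakdown 8 rose and 2 fell, with a median of 1.33. The lists share members. In Myc against WT 1 periportal gene rose and 4 fell, with a median of -0.13, and 0 amino acid genes rose and 1 fell, with a median of -0.17. The difference of the 2 differences was called positive for 5 of the 23 and 4 of the 12. Hal, which starts histidine breakdown, read 7.22, 8.25 and 6.81 in ApcMyc and 5.95, 4.89 and 4.21 in Apc, against 11.48, 11.37 and 11.42 in Myc and 11.58, 11.33 and 11.57 in WT. ApcMyc livers stood above every Apc liver and far below both groups with intact Apc. The difference was 2.41 (5.31-fold, adjusted p = 0.00163), and it differed from that between Myc and WT (2.48, adjusted p = 0.042).

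The same placing between the groups held for the liver glutaminase Gls2. It read 8.11, 7.67 and 6.97 in ApcMyc and 6.04, 4.36 and 4.54 in Apc, a difference of 2.60 (6.07-fold, adjusted p = 0.00145), with all Myc and WT arrays between 10.91 and 11.95. Sds, serine dehydratase, read 7.84, 8.54 and 6.35 in ApcMyc and 5.71, 4.25 and 5.73 in Apc (2.34, adjusted p = 0.00534). By limma's test the difference of the 2 differences did not pass for Gls2 (2.37, adjusted p = 0.0597) or Sds (1.85, adjusted p = 0.169). Kynu, kynureninase of tryptophan breakdown, read 9.23, 9.59 and 8.83 in ApcMyc and 6.75, 6.59 and 7.22 in Apc (2.37, adjusted p = 6.7e-05) and differed from Myc against WT by 2.50 (adjusted p = 0.0057). Amdhd1 and Ftcd, later steps of histidine breakdown, rose by 1.74 and 1.32, with -0.36 and 0.25 in Myc against WT, neither called. Gldc of the glycine cleavage system and Otc of the urea cycle rose by 0.64 and 0.57. Their calls were lost without any of 3 and of 5 arrays, and a dimmer probe set of Otc was called in the opposite direction (-0.76, adjusted p = 0.0209).

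The list was not uniform. Uroc1, the histidine enzyme between Hal and Amdhd1, read 8.09, 7.95 and 7.75 in ApcMyc and 8.95, 8.88 and 9.22 in Apc, and fell by 1.09 (adjusted p = 0.0013), as it did in Myc against WT (-1.77, adjusted p = 0.00028). A dimmer probe set of Uroc1 was not called and differed the other way (0.88, adjusted p = 0.0889). Prodh2, hydroxyproline dehydrogenase, fell by 0.81. Arginase 1 (Arg1) read 11.38, 11.18 and 10.35 in ApcMyc and 11.06, 9.30 and 8.52 in Apc, overlapping, and was not called (1.35, adjusted p = 0.0634). It was called without Apc replicate 1, at 2.07. The periportal cytochrome Cyp2f2 read 10.25, 10.66 and 10.29 in ApcMyc and 10.54, 8.27 and 7.79 in Apc. Apc replicate 1 lay among the ApcMyc arrays, and the call (1.53, adjusted p = 0.0471) was lost in 5 of the 6 fits that left 1 array out. The count of periportal rises was 5 without Apc replicate 2 or ApcMyc replicate 1 and 6 without Apc replicate 3.

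**Figure D3:**
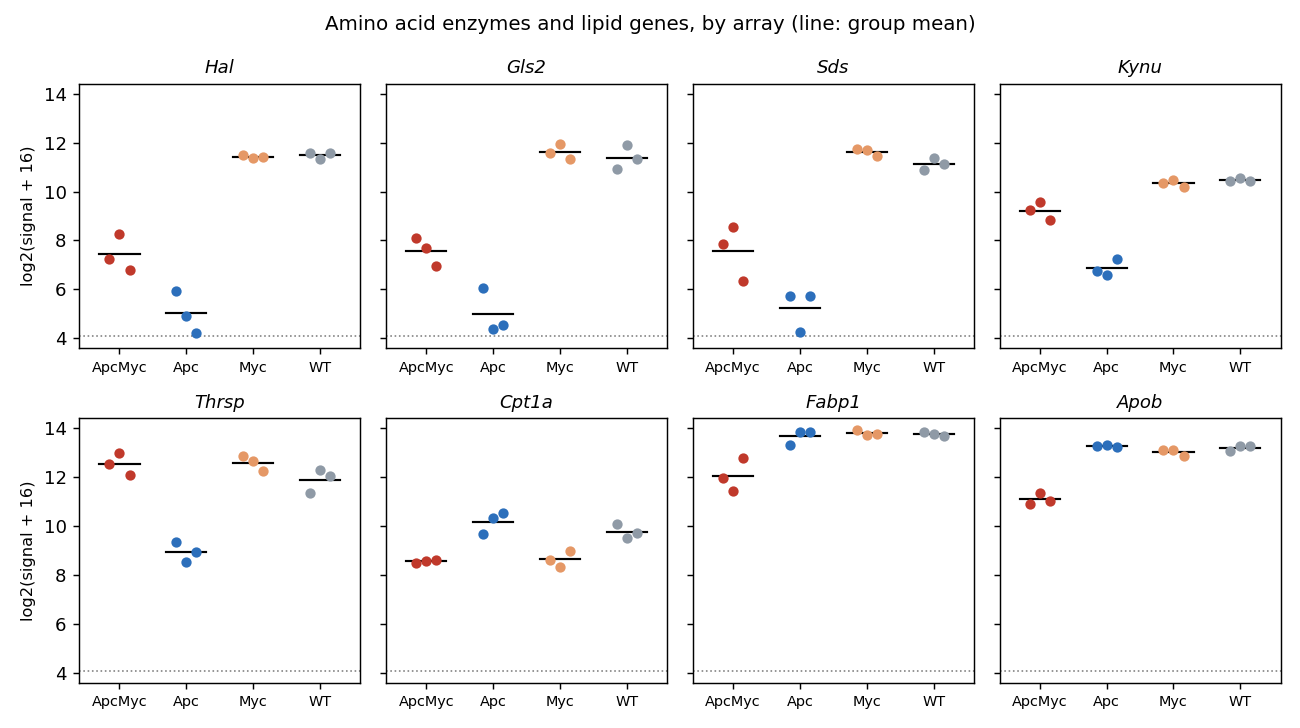
Level of 8 enzymes and lipid genes on each array, log2(signal + 16) on the y axis. The line is the group mean and the dotted line the level of the lowest signal. Hal, Gls2, Sds and Kynu lay between the Apc arrays and the Myc and WT arrays in ApcMyc livers, Thrsp stood at the level of the Myc and WT arrays, and Cpt1a, Fabp1 and Apob were lower in ApcMyc than in Apc.

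Genes of lipid and sterol synthesis rose where they moved, 5 of 10 measured with 0 falls and a median of 0.93. Between Myc and WT 2 rose and 2 fell, with a median of 0.33. Thrsp, a nuclear protein that promotes fatty acid synthesis, had the largest rise of any named gene. It averaged 12.54 ± 0.457 in ApcMyc (SD, n = 3), with 12.08 on the lowest array, and read 9.37, 8.54 and 8.94 in Apc, beside 12.89, 12.67 and 12.24 in Myc and 11.34, 12.31 and 12.06 in WT. The Apc livers stood apart and the ApcMyc livers read like the groups with intact Apc. A dimmer probe set of Thrsp rose by 3.25. The difference was 3.59 (adjusted p = 5.08e-05), and 2.89 beyond that between Myc and WT (adjusted p = 0.012). Hsd17b7, of cholesterol synthesis, rose by 0.99 (0.42 in Myc against WT, not called), the sterol carrier Stard4 by 0.93 (0.61 there, not called) and the lipogenic regulator Srebf1 by 0.99, whose call was lost without any of 4 arrays. Insig1, which retains SREBP in the endoplasmic reticulum, differed by -0.83 (adjusted p = 0.104).

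Genes of fatty acid oxidation and the PPAR-alpha programme lay lower. All 10 measured differences were below 0, with a median of -0.87, 3 were called, and in Myc against WT 3 rose and 1 fell, with a median of 0.15. Cpt1a, which brings fatty acids into mitochondria, read 8.49, 8.59 and 8.60 in ApcMyc and 9.67, 10.35 and 10.53 in Apc (-1.62, adjusted p = 0.00095), and it also fell in Myc against WT (-1.13, adjusted p = 0.014). Fabp1, the liver fatty acid carrier, read 11.96, 11.46 and 12.79 in ApcMyc and 13.34, 13.87 and 13.87 in Apc (-1.62, adjusted p = 0.00187), against 0.03 in Myc against WT. The number called was 5 without Apc replicate 1, and 2 without Apc replicate 2, Apc replicate 3, ApcMyc replicate 1 or ApcMyc replicate 2.

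Plasma proteins showed 5 falls and 0 rises among 18, beside 20.8% of all named genes called lower, with a median of -0.38. Between Myc and WT 3 fell and the median was -0.37. The count of falls ran from 4 to 8 with 1 array left out, and was 8 without ApcMyc replicate 3. Apob, the core protein of lipoproteins that the liver secretes, read 10.89, 11.38 and 11.02 in ApcMyc and 13.28, 13.34 and 13.23 in Apc, and 13.10, 13.12 and 12.86 in Myc and 13.08, 13.28 and 13.27 in WT. The ApcMyc arrays alone stood low. The difference was -2.19 (4.56-fold lower, adjusted p = 3.1e-05) and -2.01 beyond that between Myc and WT (adjusted p = 0.0044). The copper carrier ceruloplasmin (Cp) fell by 1.56 and Apoh by 1.12, the second also in Myc against WT (-1.05). Of 5 acute phase genes 0 were called in limma's fit, and 1 had an unadjusted p under 0.05.

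All 6 measured genes of the list of ribosomal proteins and translation factors fell, with a median of -1.91, and 6 fell in each fit that left 1 array out. In Myc against WT 3 fell and the median was -0.73. Rps24, of the small ribosomal subunit, read 10.17, 9.78 and 9.33 in ApcMyc and 12.11, 11.99 and 12.15 in Apc, beside 9.77, 9.99 and 9.96 in Myc and 12.09, 11.64 and 11.62 in WT. Both groups with Myc deleted, which share a title style, stood low, by -2.32 (adjusted p = 6.7e-05) and -1.88 (adjusted p = 0.00051). The initiation factors Eif2s2 and Eif3c fell by 2.10 and 2.00 in ApcMyc and differed by -0.59 and -0.59 in Myc against WT, and both differences between those were called (-1.51, adjusted p = 0.033, and -1.42, adjusted p = 0.034). Rps9 and Rpl13a fell by 1.81 and 1.18. The list holds 57 genes, so the measured ones are a small share, and several of their probe sets are marked as open to cross-hybridization with related sequences.

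Of the Myc targets and ribosome biogenesis genes only 4 of 65 could be named. Ddx18, a nucleolar helicase, fell by 1.23 (adjusted p = 0.00117) and the folate enzyme Mthfd1 by 1.34 (adjusted p = 0.00378), the second also in Myc against WT (-1.97). Nucleolin (Ncl) read 11.54, 11.40 and 11.27 in ApcMyc and 10.62, 11.40 and 11.23 in Apc, and ornithine decarboxylase (Odc1) read 8.03, 8.06 and 8.23 in ApcMyc and 7.59, 8.31 and 7.79 in Apc. Both overlapped, with differences of 0.32 (95% interval -0.10 to 0.74) and 0.21 (95% interval -0.24 to 0.66). Of the 55 listed genes of mitochondrial respiration only 5 were measured. Of these 4 fell, with a median of -0.91 beside -0.75 in Myc against WT. The ATP synthase subunit Atp5e fell by 1.26 and by 0.87 there, and Ndufv1 of complex I by 0.91 and 0.75.

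Markers of macrophages, endothelium and lymphocytes rose in ApcMyc, and those of some other cells did not. Of 7 named macrophage and monocyte genes 4 rose, with a median of 1.22, and the same number rose in Myc against WT, with a median of 1.12. Timd4, a marker of resident Kupffer cells, read 8.13, 7.80 and 8.06 in ApcMyc and 5.63, 5.61 and 6.40 in Apc (2.11, adjusted p = 0.000138), and rose by 1.50 in Myc against WT. Marco, a scavenger receptor, rose by 2.71 (0.46 in Myc against WT, not called), and Cd68 rose by 1.22 and by 1.13 there. The 2 differences of Marco did not differ by limma's test (2.25, adjusted p = 0.0892). The summed signal of the list was 2632 to 3901 in ApcMyc, 1046 to 1597 in Apc, 2477 to 3175 in Myc and 746 to 1935 in WT, and 0 of its members were at the lowest signal on all 6 ApcMyc and Apc arrays.

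Of 7 named endothelial genes 5 rose, with a median of 1.11, beside 3 rises and a median of 0.77 in Myc against WT. Kdr, the VEGF receptor of endothelium, read 8.54, 8.73 and 8.51 in ApcMyc and 7.17, 6.48 and 6.57 in Apc (1.85, adjusted p = 0.000628), with 0.10 in Myc against WT, and the 2 differed (1.75, adjusted p = 0.031). Flt4, Lyve1 and Cdh5 rose by 1.43, 1.32 and 1.11, and Pecam1 was not called (0.69, adjusted p = 0.154). The summed endothelial signal was 1244 to 1394 in ApcMyc and 405 to 672 in Apc. The 3 named lymphocyte genes, Ccl5, Gzma and Nkg7, rose by 1.68, 1.52 and 0.92, beside 1 rise and a median of 0.67 in Myc against WT, and their summed signal was 279 to 700 in ApcMyc and 110 to 133 in Apc. Of 4 neutrophil genes 0 were called by limma and 1 had an unadjusted p under 0.05, with a summed signal of 185 to 793 in ApcMyc and 142 to 661 in Apc. Of 6 genes of stellate cells and fibroblasts 1 rose (Col4a1, 1.04) and 1 fell (Hgf, -1.08), with a median of -0.14 and a summed signal of 1256 to 1488 in ApcMyc and 935 to 1119 in Apc. Of 3 cholangiocyte genes the tight junction gene Cldn3 fell by 1.82, and by 1.05 in Myc against WT, and the list had a median of -1.09 and a summed signal of 232 to 417 in ApcMyc and 1003 to 1131 in Apc. Their part in the results above was not tested.

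**Figure D4:**
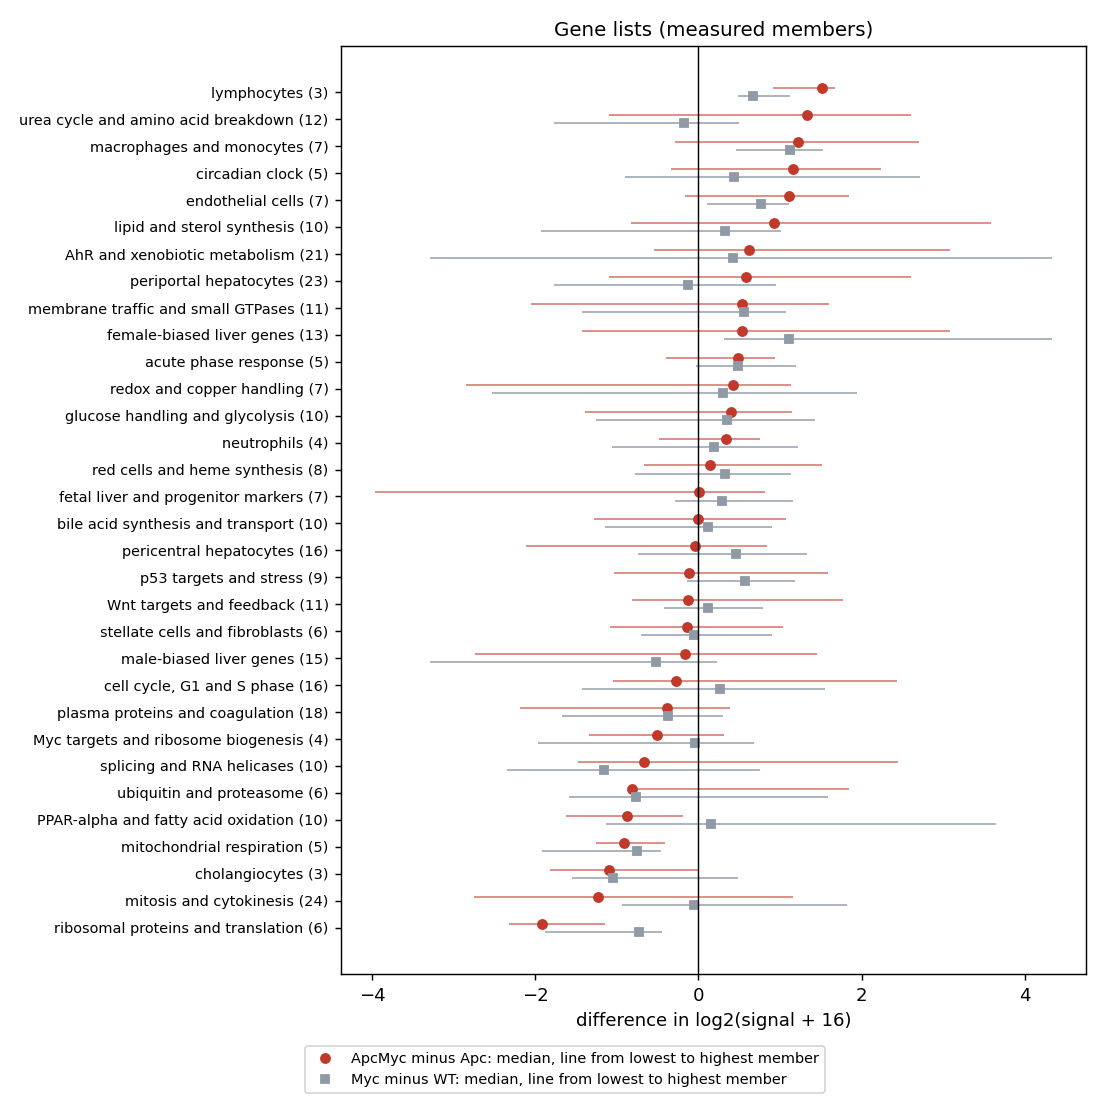
Median difference of each of the 32 gene lists with at least 3 measured members in log2(signal + 16), with a line from its lowest to its highest member, for ApcMyc minus Apc (circles) and Myc minus WT (squares). The number of measured members stands in brackets; the medians are -1.23 and -0.05 for mitosis genes, 1.33 and -0.17 for amino acid enzymes, 1.22 and 1.12 for macrophage genes and -0.91 and -0.75 for respiration genes, and no test was made between the medians.

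Among smaller groups, 3 of 5 clock genes rose, beside 1 in Myc against WT. Ciart, a clock repressor, rose by 2.06 and by 2.72 in Myc against WT. The rise of Rora (1.16) held for its brightest probe set, and the mean of its probe sets gave -0.07. Cyp1a1, the gene that the inducer's receptor switches on, varied widely within groups, at 11.05, 11.86 and 10.72 in ApcMyc and 11.71, 10.26 and 8.10 in Apc, and was not called (1.18, adjusted p = 0.465). In Myc against WT the difference of Cyp1a1 was 2.67. Whether the inducer acted equally in all groups was not tested. Afp, the fetal liver marker, read 10.82, 9.97 and 10.25 in ApcMyc and 9.78, 12.14 and 11.94 in Apc. It was not called (-0.94, adjusted p = 0.203) but was called without Apc replicate 1, at -1.69, and 2 of its 3 dimmer probe sets were called lower, at -1.61 and -2.45. Xbp1 of the unfolded protein response fell by 0.68, a call lost without any of 4 arrays. The p53 target Mdm2 rose by 1.59 (adjusted p = 0.00235), with 0.85 in Myc against WT (adjusted p = 0.0796).

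Of the remaining large rises, Pik3cd, a phosphoinositide kinase subunit of leukocytes, read 11.32, 11.59 and 11.61 in ApcMyc and 7.67, 7.94 and 8.32 in Apc (3.53, 11.6-fold, adjusted p = 1.4e-05), and rose by 1.80 in Myc against WT. Celf2, an RNA-binding splicing regulator, read 8.51, 8.61 and 8.64 in ApcMyc and 5.56, 6.05 and 6.80 in Apc, with a difference of 2.45 (adjusted p = 0.000164) and -0.15 in Myc against WT. The interferon-inducible GTPase Gbp2b rose by 2.70 and by 1.10 in Myc against WT. Gdpd3, a lysophospholipase, rose by 3.16, with ApcMyc arrays at 7.63, 7.59 and 8.78 and Apc arrays at 4.16, 5.73 and 4.63, and differed by 0.81 in Myc against WT (adjusted p = 0.542). Each of these separated the ApcMyc from the Apc arrays, as did 36.4% of all probe sets in either direction. Their choice as the largest called rises makes that likely, so it adds no support.

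**Figure D5:**
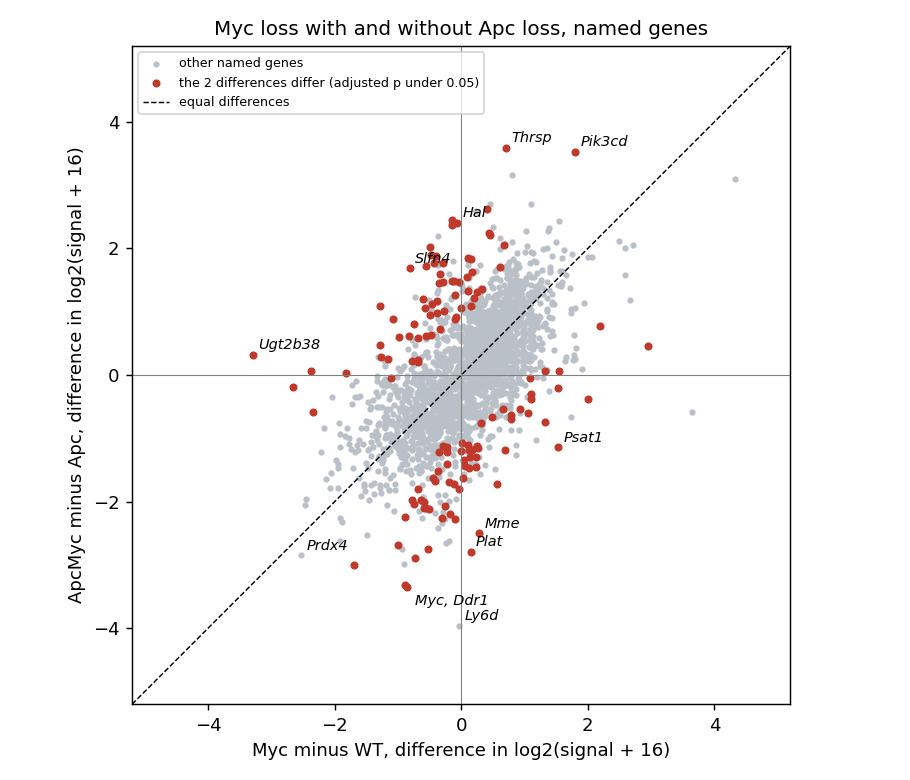
Each point is 1 of 2176 named genes, with the difference Myc minus WT on the x axis and ApcMyc minus Apc on the y axis, in log2(signal + 16). The 130 red genes are those whose differences differed from each other by limma's test, 64 above the dashed line of equal differences and 66 below it.

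The authors' deposited table of ApcMyc against Apc was made with SAM on the scores, and its numerators matched the scores in 140 of 140 probe sets only when Apc replicate 1 was left out. With all 6 arrays, or any other 1 array left out, 0 of 140 matched. In the authors' deposited table at their looser setting 25 probe sets were higher and 115 lower, and 14 of the lower were control probe sets. At their stricter setting 24 were lower, 10 of them controls. In the fit with all arrays, 18 of the 25 and 89 of the 101 lower ones that are not controls were called in the same direction. Myc, Plat, Mme, Ncapg and Apob were among the lower ones in the authors' deposited table, and Kynu, Gls2 and Pik3cd among the higher.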

How the data were processed

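The members of each comparison are arrays grouped by their genotype labels, and the gene lists were chosen with earlier results of these data known. Per the labels' protocols, RNA came from Trizol and RNeasy preparations and was labelled by an Enzo BioArray kit. Array type, detection calls and scanner settings: not given in the sources used here. As deposited, each value is a score, namely the log signal of a probe set, standardized by the authors within each array. The authors' deposited SAM lists also hold scores, and 4 of their per-sample columns matched no sample and were not used.

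The lowest scores of each array step on a grid of 0.1 signal units with a floor of 1, which gave back linear signals (100.0% of signals below 1000 within 0.01 of the grid on every array). Signals of 32176 probe sets were quantile normalized and analysed as log2(signal + 16), and 61 controls among them were not tested. With limma 3.58.1 (R 4.3.3), 4 group means were estimated over all 12 arrays, which share one estimate of spread. Two-sided p-values had the Benjamini-Hochberg adjustment over 32115 probe sets, and 95% intervals use 12.52 moderated degrees of freedom. The number of arrays limits the precision. Other steps used Python 3.11.15 with pandas 2.3.3, NumPy 2.4.6, SciPy 1.17.1 and matplotlib 3.10.9.

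Names came from the 3 looser lists, which hold 2975 probe sets: 24 controls, 230 with no symbol, 204 with several and 2517 with 1. Of those symbols 1978 were current in RefSeq's GRCm38.p6 gene table, 376 were updated and 163 not matched. They stand for 2176 genes, each by its brightest probe set, and 8 of 269 genes with several probe sets had calls in opposite directions. The genes named are the 15 largest called rises and falls, Myc, Glul, Axin2, Lgr5, Cyp2f2 and Ccnd1, from each of 32 lists up to 4 members by smallest p, and the 8 largest called differences of differences each way. Further list members, such as the other mitosis genes, Arg1 and Cyp1a1, were added after their values were seen. A few genes that the rule names are not reported here. In a simulation, 200 of 32115 probe sets were changed, by 0.5, 1 and 2 on the log2 scale. The fit of ApcMyc against Apc recovered 0%, 51.5% and 93.5% of them, and the difference of differences 0%, 0% and 80.5%. In the data 6702 and 744 probe sets were called in these tests. The simulation changed fewer, which makes the cutoff on adjusted p stricter. Its shares therefore do not give the recovery in the data, where Glul was called at -0.45 and Tbx3 at -0.56 in ApcMyc against Apc. Alternatives covered the scores as deposited, array scaling, the pseudocount, a filter on dim probe sets, the variance model, the arrays in the fit and each array left out.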

Additional observations from a re-analysis of the deposited data

Results flagged for a closer look

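For 16 named genes the difference between ApcMyc and Apc differed from that between Myc and WT by limma's test of the difference of differences, the 8 largest in each direction. Those in the positive direction were Ugt2b38 (3.62), Thrsp (2.89), Celf2 (2.60), Ccnt2 (2.51), Slfn4 (2.51), Kynu (2.50), Hal (2.48) and LOC668215 (2.46). Those in the negative direction were Plat (-2.94), Mme (-2.77), Psat1 (-2.68), Myc (-2.49), Clec2h (-2.49), Ddr1 (-2.43), BC048546 (-2.39) and Ap2b1 (-2.28).

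The genes differ in which pair of groups carried the value. Ccnt2, a cyclin of transcription elongation, read 9.41, 9.51 and 9.05 in ApcMyc and 7.30, 7.11 and 7.49 in Apc, a rise of 2.03, and differed by -0.49 between Myc and WT (adjusted p = 0.238). Ap2b1, an adaptor of clathrin coats, read 6.95, 6.76 and 7.25 in ApcMyc and 8.64, 8.57 and 8.90 in Apc. It fell by 1.72, with 0.56 between Myc and WT (adjusted p = 0.0592). The other probe set of Ap2b1 averaged 7.46 in ApcMyc and 7.23 in Apc and was not called (0.24, adjusted p = 0.374). Slfn4, a Schlafen family gene of myeloid cells, rose by 1.69 in ApcMyc against Apc and differed by -0.81 in Myc against WT.

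Psat1, of serine synthesis, was called lower in ApcMyc against Apc, a call lost in 5 of the 6 fits that left 1 of those arrays out, and higher in Myc against WT. It read 6.53, 6.12 and 6.76 in ApcMyc and 7.74, 7.87 and 7.23 in Apc (-1.14, adjusted p = 0.0446), and 6.29, 6.75 and 6.77 in Myc and 5.99, 4.17 and 5.06 in WT (1.53, adjusted p = 0.0236). Ugt2b38, LOC668215, Clec2h and BC048546 were not called between ApcMyc and Apc. Ugt2b38, of a family of close copies, differed by 0.32 between ApcMyc and Apc (adjusted p = 0.749) and by -3.29 between Myc and WT, with Myc replicate 3 at 8.13 and the other Myc arrays at 5.21 and 5.19. LOC668215 gave -0.19 and -2.65, Clec2h gave 0.46 and 2.95, and BC048546 gave -0.37 and 2.01.

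The differences of differences of Thrsp, Celf2, Ccnt2, Kynu, Mme and Myc stayed called in all 12 fits that each left 1 array out. So did that of Ap2b1 on its brightest probe set. The call was lost in 3 for Slfn4, 5 for Plat, 6 each for Clec2h and Ddr1, 7 for Psat1, 8 each for BC048546 and LOC668215, 10 for Hal and 11 for Ugt2b38, where the value ran from 3.12 to 4.60. Apc replicate 2, ApcMyc replicate 2 and Myc replicate 2 were among the arrays whose removal ended the calls of Plat, Ddr1, Psat1, BC048546, LOC668215 and Hal.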

How the results depend on the processing

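The count of calls in ApcMyc minus Apc ran from 4554 to 7630 over its alternatives, 4554 to 5817 with 1 array left out, against 6702. In Myc minus WT the 2925 calls became 1249 to 2564 with 1 array left out, and scaling arrays to a common median turned 1302 rises and 1623 falls into 2251 and 1523. The difference of differences was the least stable: its 744 calls were 1309 with an intensity trend, 1207 with median scaling (402 higher and 805 lower, against 386 and 358), 194 and 1586 with pseudocounts of 1 and 64, 162 on the scores as deposited, 149 on those scores quantile normalized, 1399 without dim probe sets and 159 to 929 with 1 array left out. The causes were not tested. Of 131 genes chosen for naming and called in ApcMyc minus Apc, 32 lost the call without at least 1 array. Reversed differences were those of Rora (-0.07) and Otc (-0.03) under the mean of probe sets, and, among genes not called and with 1 array left out, of Axin2 (-0.35 to 0.00), Lgr5 (-0.26 to 0.10), Prtn3 (-0.73 to 0.02), Camp (-0.11 to 0.38), Tspan8 (-0.12 to 0.17) and LOC668215 (-0.67 to 0.07). Without normalization between arrays the difference between title styles, ApcMyc and Myc minus Apc and WT, turned from -0.07 to 0.73 for the BioB 3′ control and from -0.20 to 0.25 for the Gapdh 5′ control, and was 0.59, 0.50 and 0.70 for Gapdh 3′ and actin 3′ and 5′. No paired analysis was possible because the titles of the ApcMyc arrays carry no replicate numbers. Probe sets near the level of 4.09 have no order.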

Other observations

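Genes of membrane traffic moved in both directions in ApcMyc against Apc, with 6 rises and 4 falls among 11 named. Rab14, a GTPase of endosomes, read 10.68, 10.75 and 10.47 in ApcMyc and 9.11, 9.18 and 8.81 in Apc (1.60, adjusted p = 9.18e-05), and a second probe set rose by 1.48. Rab1b, which serves transport out of the endoplasmic reticulum, read 7.74, 7.82 and 8.22 in ApcMyc and 10.27, 9.69 and 9.95 in Apc (-2.05, adjusted p = 6.58e-05). Both moved the same way in Myc against WT, by 1.07 and -1.17. Rbx1, the RING subunit of cullin ubiquitin ligases, rose by 1.85 and by 1.59 there, and the copper chaperone Atox1 rose by 1.14 and by 1.94.

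Sex-biased liver genes gave 1 rise and 2 falls among 15 male-biased and 2 rises and 1 fall among 13 female-biased genes in ApcMyc against Apc. In Myc against WT 4 of the 15 fell, with a median of -0.52, and 7 of the 13 rose, with a median of 1.11. The major urinary protein gene Mup3, of a family of close copies, read 8.22, 8.87 and 8.13 in ApcMyc and 10.64, 11.12 and 11.66 in Apc (-2.74, adjusted p = 8.24e-05), and differed by -0.52 in Myc against WT (adjusted p = 0.225). Hsd3b5, a steroid dehydrogenase of male liver, was low in both groups, at 4.13, 4.10 and 4.34 in ApcMyc and 6.24, 4.89 and 5.11 in Apc, beside 9.90, 9.39 and 10.27 in Myc and 12.08, 12.15 and 11.96 in WT. Nudt7, a peroxisomal coenzyme A hydrolase, rose by 1.45 in ApcMyc against Apc, and by 1.80 beyond the difference between Myc and WT (adjusted p = 0.0247). The carboxylesterase Ces2a rose by 1.06, and was not called between Myc and WT (adjusted p = 0.992).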
